A study of Homo sapiens with 9 samples.

Results

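The accessible chromatin around 10 apolipoprotein genes was described in HepG2 cells, a line derived from a human liver cancer, after treatment with siRNAs against INO80. The genes were APOB, APOA1, APOA2, APOA4, APOA5, APOC1, APOC3, APOE, APOH and APOM. They were chosen by name, and a peak was taken for a gene when it overlapped the gene body or the 20 kb on either side of it (GENCODE, GRCh37). Windows that met were joined, so that APOA1, APOC3, APOA4 and APOA5 on chromosome 11 formed 1 cluster and APOE and APOC1 on chromosome 19 another. The resulting 6 windows spanned 396 kb and held 59 of the 111260 regions obtained by merging all peaks of the series, with 46 of 69730 peaks in NTG, 36 of 69333 in siINO80#1 and 30 of 53113 in siINO80#2.

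Chromatin was profiled by ATAC-seq, in which a transposase cuts accessible DNA and leaves sequencing adapters there. The cells were transfected for 72 h with a siRNA at 50 nM, either the non-targeting control (NTG) or one against INO80 (siINO80#1 or siINO80#2). INO80 is a chromatin remodeler that slides nucleosomes with the energy of ATP. Each group had 3 replicates but only 1 peak list, so the spread between replicates is unknown and groups could not be tested against each other. The lists do not measure how far INO80 was depleted.

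Apolipoproteins are the proteins of lipoprotein particles, which carry cholesterol and triglycerides through the blood. The liver secretes most of them. APOB is the large structural protein that stays with a particle for its whole life, whereas the smaller ones exchange between particles and act as enzyme cofactors, inhibitors or receptor ligands. Several lie next to each other in the genome, and such clusters are known to share enhancers.

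A start-site peak had its summit within 1 kb of an annotated start site of the gene, and a peak near no start site was called distal. Both of the following values were used for each peak. Fold enrichment is the reads at the summit over the local background of the same list, as deposited. Summit height is the number of reads at the summit divided by the genome background of the list. The reads and both backgrounds were recovered from the fold enrichment and the p-value of each peak assuming that MACS2, the peak caller, used its usual formulas. The genome background was 3.82 reads in NTG, 5.16 in siINO80#1 and 5.34 in siINO80#2. At the genome background the lowest summit height that could be called was 3.14 in NTG, 2.72 in siINO80#1 and 2.81 in siINO80#2. Intervals are 95% intervals of counting error alone, Poisson for heights, exact conditional binomial for their ratios and Wilson for shares. The label of the cells was checked against marker genes. Of 8 hepatocyte markers, 7 had a start-site peak in NTG, 6 in siINO80#1 and 5 in siINO80#2. Over all protein-coding genes the shares with such a peak were 60.5%, 60.1% and 53.4%. FGB had none in any list, ALB had none in siINO80#2 and AFP had one in NTG only. Of 13 markers of intestinal epithelium, blood, endothelium, fibroblast, muscle and neuron (1 of them, PECAM1, was not named in the annotation), 2, 4 and 2 had one.

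The sequences below are the 200 bp around the NTG summit of 4 start-site peaks and of the strongest distal peak of 4 windows, since the results turn on these peaks. They are given 5′ to 3′ as in GRCh37, on the minus strand for APOA2, APOH, APOB and the chromosome 11 cluster and on the plus strand for APOM, APOC1 and the chromosome 19 cluster. Capitals mark matches to the motifs described further down, as read on the printed strand.
APOA2 start site, chr1:161194020-161194219: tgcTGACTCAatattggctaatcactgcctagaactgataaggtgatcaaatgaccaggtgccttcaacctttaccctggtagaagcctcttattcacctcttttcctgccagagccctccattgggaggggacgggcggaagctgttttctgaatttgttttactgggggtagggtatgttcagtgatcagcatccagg
APOH start site, chr17:64225474-64225673: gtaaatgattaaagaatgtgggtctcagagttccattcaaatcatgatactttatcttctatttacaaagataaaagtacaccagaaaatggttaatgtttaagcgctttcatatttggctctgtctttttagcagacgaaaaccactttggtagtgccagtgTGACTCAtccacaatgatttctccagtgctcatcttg
APOM start site, chr6:31623424-31623623: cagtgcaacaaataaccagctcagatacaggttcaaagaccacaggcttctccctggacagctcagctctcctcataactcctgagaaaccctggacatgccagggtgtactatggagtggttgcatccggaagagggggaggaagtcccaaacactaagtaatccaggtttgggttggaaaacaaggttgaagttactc
APOC1 start site, chr19:45418231-45418430: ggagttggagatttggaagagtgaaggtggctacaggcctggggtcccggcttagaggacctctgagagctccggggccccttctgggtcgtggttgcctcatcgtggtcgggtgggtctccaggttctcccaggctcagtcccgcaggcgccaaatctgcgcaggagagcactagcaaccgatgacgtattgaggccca
APOB upstream, chr2:21279288-21279487: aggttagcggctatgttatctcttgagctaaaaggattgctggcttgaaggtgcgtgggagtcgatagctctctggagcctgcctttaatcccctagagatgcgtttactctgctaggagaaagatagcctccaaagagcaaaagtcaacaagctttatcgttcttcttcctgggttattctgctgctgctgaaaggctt
APOA5 to APOA4 intergenic, chr11:116679044-116679243: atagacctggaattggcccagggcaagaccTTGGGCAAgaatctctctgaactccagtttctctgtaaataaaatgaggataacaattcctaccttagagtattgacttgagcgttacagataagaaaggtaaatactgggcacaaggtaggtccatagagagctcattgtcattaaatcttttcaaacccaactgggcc
APOC1 downstream, chr19:45439182-45439381: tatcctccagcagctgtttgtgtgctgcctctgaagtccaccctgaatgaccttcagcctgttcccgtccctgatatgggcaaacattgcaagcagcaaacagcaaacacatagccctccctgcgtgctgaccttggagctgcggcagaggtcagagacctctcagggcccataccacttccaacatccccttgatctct
APOH upstream, chr17:64271828-64272027: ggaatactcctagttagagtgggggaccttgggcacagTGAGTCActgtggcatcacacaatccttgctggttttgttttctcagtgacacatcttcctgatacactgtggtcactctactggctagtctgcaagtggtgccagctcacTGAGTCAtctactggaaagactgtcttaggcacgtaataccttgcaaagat

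Start-site peaks were examined first. In NTG 7 of the 10 genes had one (APOA1, APOA2, APOB, APOC1, APOC3, APOH and APOM), against 60.5% of 20136 protein-coding genes. In siINO80#1 there were 6 (60.1% of all genes), and in siINO80#2 there were 7 (53.4%). The same 6 genes, APOA1, APOA2, APOB, APOC3, APOH and APOM, had a start-site peak in all 3 lists (50.8%). APOC1 had one in NTG only and APOA5 in siINO80#2 only, whereas APOA4 and APOE had none in any list.

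APOB (chromosome 2, 21224301 to 21266945, minus strand) encodes the structural protein of VLDL and LDL. Its start site lay in a broad NTG peak, chr2:21264719-21267275, with 80 reads at the summit, 75 in siINO80#1 and 64 in siINO80#2. The summit height was 20.9 in NTG (16.6 to 26.1), 14.5 in siINO80#1 (11.4 to 18.2) and 12.0 in siINO80#2 (9.24 to 15.3). The ratio to NTG was 0.694 for siINO80#1 (0.4999 to 0.964) and 0.573 for siINO80#2 (0.406 to 0.805), and neither interval reached 1. The strongest summit lay 823 bp downstream of the nearest annotated start in NTG and 766 bp downstream in siINO80#2, but 63 bp upstream of the start in siINO80#1. In siINO80#2 the region was split into 2 peaks, and the one over the start site itself had 50 reads and a height of 9.37.

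APOA1 (chromosome 11, 116706467 to 116708338, minus strand) encodes the main protein of HDL. Its start-site summits lay 62 to 113 bp upstream, with 52 reads in NTG, 51 in siINO80#1 and 40 in siINO80#2. The heights were 13.6 (10.2 to 17.9), 9.89 (7.36 to 13.0) and 7.497 (5.36 to 10.2). The height ratio to NTG was 0.726 for siINO80#1, with an interval of 0.484 to 1.09 that included 1, and 0.551 for siINO80#2, with an interval of 0.355 to 0.848.

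APOA2 (chromosome 1, 161192082 to 161193421, minus strand) encodes the second protein of HDL. Its peak lay 661 to 699 bp upstream of the start, between APOA2 and the divergent gene TOMM40L. The reads at the summit were 56 in NTG, 55 in siINO80#1 and 53 in siINO80#2, and the heights were 14.7, 10.7 and 9.93. The height ratio was 0.727 for siINO80#1 (0.492 to 1.07) and 0.677 for siINO80#2 (0.456 to 1.004), so both intervals included 1. TOMM40L, which encodes a mitochondrial import pore protein, had its own start-site peak in the same intergenic stretch, with heights of 13.6, 15.7 and 10.5.

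APOC3 (chromosome 11, 116700422 to 116703788, plus strand) encodes an inhibitor of lipoprotein lipase. It had a start-site peak in each list, and these were not the same interval. The NTG peak, chr11:116699823-116699975, had its summit 481 bp upstream and did not overlap the siINO80 peaks, which overlapped each other and had summits 165 bp and 80 bp upstream. The reads were 33, 30 and 28, the heights 8.64, 5.82 and 5.25, and the fold enrichments 2.56, 1.91 and 2.00. The peaks ranked at percentiles 10.6, 0.303 and 0.763 of their lists by fold enrichment and at 76.8, 63.2 and 57.8 by height.

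APOH and APOM were the remaining genes with a peak in all lists. APOH encodes beta-2-glycoprotein I, a plasma protein that binds phospholipids. Its summits lay 8 to 44 bp upstream of the canonical start, and the reads were 30 in NTG, 30 in siINO80#1 and 24 in siINO80#2. The heights were 7.86, 5.82 and 4.50 and the ratios 0.741 (0.431 to 1.27) and 0.573 (0.320 to 1.01). Its fold enrichments were 5.59, 3.76 and 3.42, the highest among the apolipoprotein start sites in NTG and in siINO80#1. APOM encodes the HDL protein that carries sphingosine-1-phosphate. At its canonical start, chr6:31623406-31623723, the reads were 65 in NTG, 55 in siINO80#1 and 39 in siINO80#2, and the heights were 17.0 (13.1 to 21.7), 10.7 (8.04 to 13.9) and 7.31 (5.198 to 9.99). The ratio was 0.627 for siINO80#1 (0.430 to 0.911) and 0.429 for siINO80#2 (0.281 to 0.648). An upstream APOM start site shared with BAG6, a chaperone gene on the other strand, had a separate region with heights of 7.86, 8.53 and 7.31, and both ratio intervals included 1 (0.668 to 1.79 and 0.563 to 1.55). In siINO80#2 this upstream peak was the stronger of both by fold enrichment (2.65 against 2.37), with the same 39 reads.

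**Figure D1:**
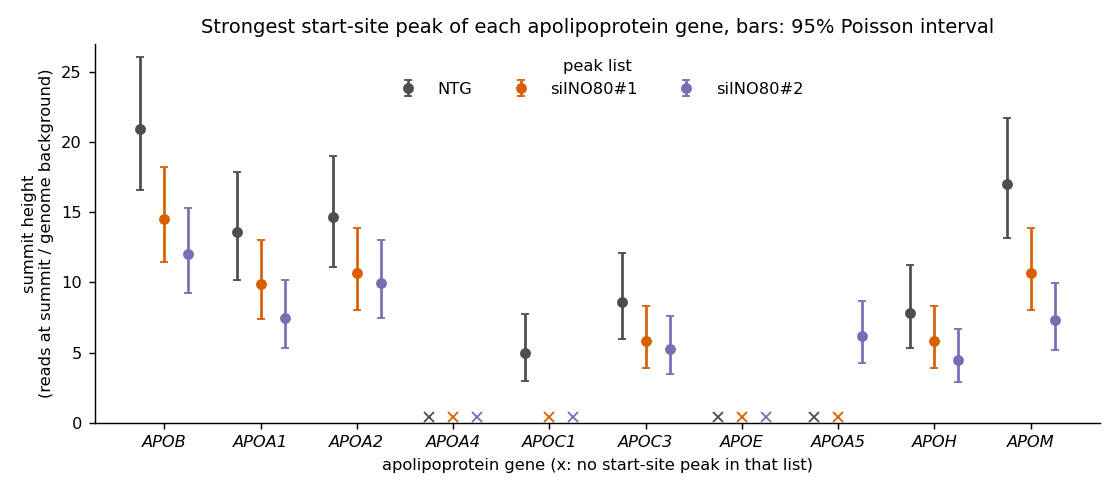
Summit height of the strongest start-site peak (y axis, reads at the summit over the genome background of the list) for each apolipoprotein gene (x axis) in the NTG, siINO80#1 and siINO80#2 lists; bars are 95% Poisson intervals and crosses mark genes without a start-site peak. The NTG point is the highest of the 3 in APOB, APOA1, APOA2, APOC3, APOH and APOM, and the intervals of most neighbouring points overlap. For APOC3 and APOM the strongest peak was not at the same place in all lists.

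A pair of genes had a peak in 1 list only. APOC1, whose product inhibits lipoprotein uptake and modifies plasma enzymes, had its NTG peak at chr19:45417974-45418417, in an intron 205 bp downstream of an annotated start, with 19 reads, a height of 4.98 and a fold enrichment of 2.68, at percentiles 46.0 and 15.4 of its list. APOA5, whose product promotes triglyceride clearance, had its siINO80#2 peak at chr11:116662107-116662411, in an intron 403 bp downstream of a start, with 33 reads, a height of 6.18 and a fold enrichment of 3.18, at percentiles 68.0 and 50.6. APOA4, which is made mainly in the intestine, and APOE, the ligand through which remnant particles are taken up, lacked a start-site peak, which at this depth does not show that their start sites were closed.

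Thus, in the 6 genes with a start-site peak in all lists the height was lower in both siINO80 lists than in NTG. The median log2 ratio was −0.49 for siINO80#1 (range −0.67 to −0.43) and −0.80 for siINO80#2 (range −1.22 to −0.56). Lower heights were also the rule elsewhere. Of 10233 protein-coding genes with a peak in all 3 lists, 67.1% were lower in siINO80#1 and 91.3% in siINO80#2, with median log2 ratios of −0.14 and −0.48. All 6 genes lay below those medians, at percentiles 6.32 (APOM) to 18.6 (APOH) of all genes for siINO80#1 and 2.77 (APOM) to 41.5 (APOA2) for siINO80#2. With fold enrichment, the ratio over the local background, the medians of the 6 genes were −0.46 and −0.41 against −0.08 and −0.30 for all genes, and all 6 were again lower in both lists. Genes without a peak in some list could not enter these medians. The strongest peak of a gene was taken in each list, and for APOC3 and APOM it was not always at the same place. The siINO80 peaks of APOC3 did not overlap its NTG peak. For APOM in siINO80#2 the upstream peak was taken, although the peak at the canonical start had the same 39 reads and so the same height ratio. With 1 list for each siRNA, a shift of the whole list and a change at these genes cannot be told apart.

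**Figure D2:**
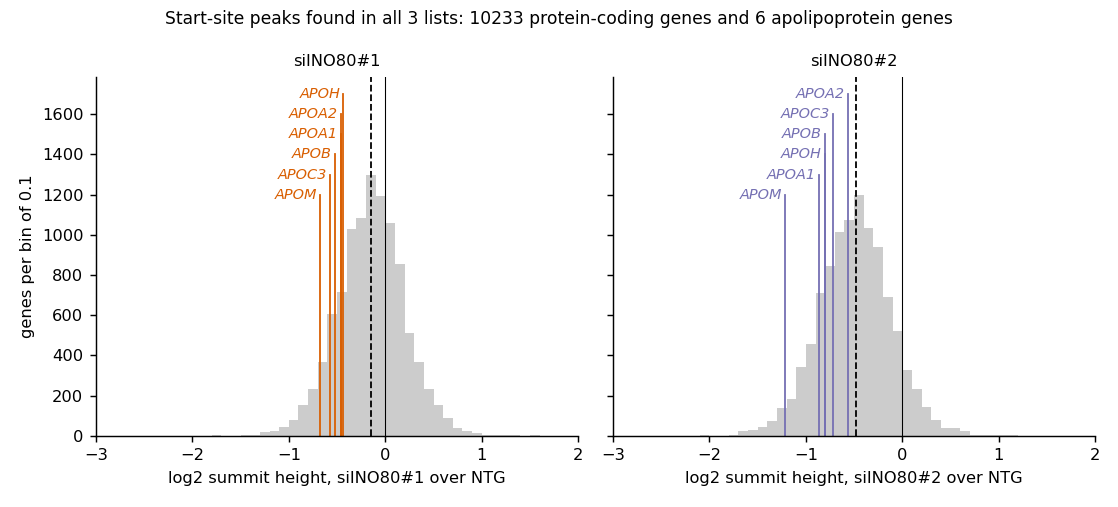
Histograms (grey) of the log2 ratio of start-site summit height to NTG for 10233 protein-coding genes (x axis, log2 scale; y axis, genes per bin of 0.1) in siINO80#1 (left) and siINO80#2 (right), with the 6 apolipoprotein genes as coloured lines, 0 as a solid line and the median of all genes dashed. The coloured lines lie to the left of the dashed line in both panels, inside the spread of all genes. The heights of the coloured lines only separate the names. The APOC3 ratios, and the APOM ratio for siINO80#2, compare peaks that do not overlap.

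The local background around these genes was itself high. No input library was used, and what raised this background was not tested. At the 6 start-site peaks the local background was a median of 3.36 times the genome background in NTG, 3.06 in siINO80#1 and 2.58 in siINO80#2, whereas it was 1.80, 1.79 and 1.63 over all genes. In 5 of the 6 genes it exceeded the median of all genes, and APOH was the exception in each list, with 1.19, 1.41 and 1.18. At 5 of the 6 start sites the NTG peak ranked higher by summit height than by fold enrichment. In NTG the APOB peak was at percentile 96.6 by height and 68.2 by fold enrichment, APOM at 94.2 and 71.1, APOA2 at 91.9 and 69.6, and APOA1 at 90.5 and 56.9. APOC3 ranked at 76.8 by height and 10.6 by fold enrichment, whereas APOH, with its lower local background, ranked at 72.7 and 81.5.

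Of the 59 regions in the windows, 12 lay at start sites of the 10 genes, 14 at start sites of neighbouring genes and 33 were distal. A total of 19 regions (32.2%, 21.7 to 44.9) were found in all 3 lists, against 26.8% of all regions. NTG alone held 21 regions (35.6%, 24.6 to 48.3; 24.4% of all regions), of which 15 were distal. Both siINO80 lists but not NTG held 4 regions (6.78%, 2.67 to 16.2; 5.19% of all regions). NTG and siINO80#1 shared 5 regions without siINO80#2 (8.47%, against 7.64% of all regions). None was shared by NTG and siINO80#2 alone (2.62% of all regions). There were 6 in siINO80#1 alone (10.2%, against 21.6% of all regions) and 4 in siINO80#2 alone (6.78%, against 11.7%). Outside the APOB window NTG alone held 10 of 36 regions (27.8%, 15.8 to 43.99), an interval that included the share over all regions. The 4 regions of both siINO80 lists were the APOC3 start site, an SIK3 intron 16.1 kb upstream of APOA1, an APOB intron and a site 47.3 kb downstream of the APOB start, and none ranked above percentile 50 of both lists. The median peak of the windows ranked at percentile 34.2 of NTG, 44.4 of siINO80#1 and 24.8 of siINO80#2 by fold enrichment, and at 60.0, 49.3 and 50.6 without the APOB window. At equal list size NTG had 25 peaks in the windows, siINO80#1 24 and siINO80#2 30. This setting removed the peaks of lowest fold enrichment from NTG and siINO80#1 and none from siINO80#2. The lower number held for siINO80#1, by 1 peak, and not for siINO80#2, where the one-sided removal cannot decide it.

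**Figure D3:**
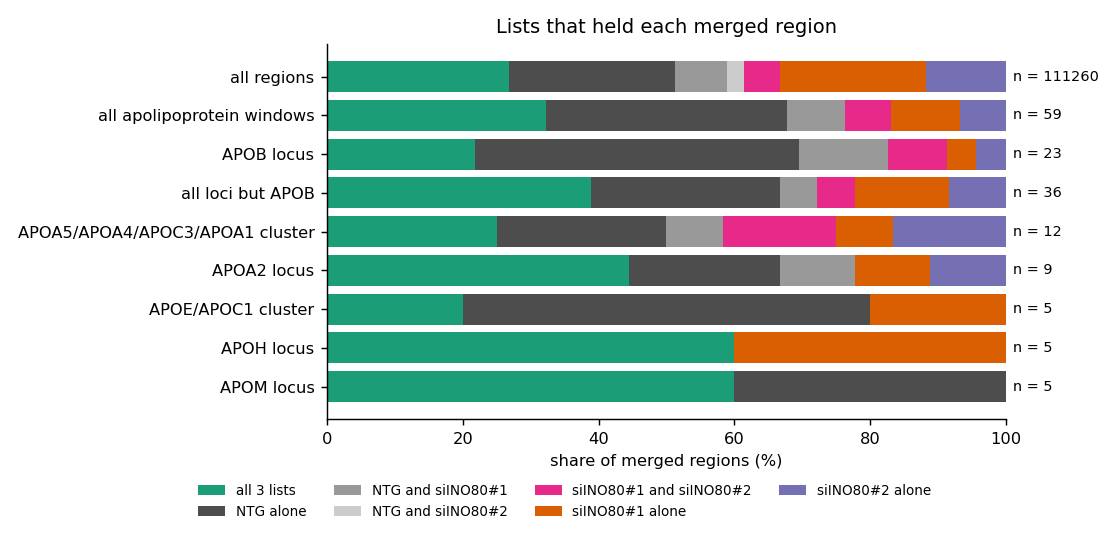
Share of merged regions (x axis, percent) by the lists that held them, for all regions, all apolipoprotein windows and each window (rows, with the number of regions n). NTG alone held 47.8% of the APOB regions and 27.8% of those of the other windows, against 24.4% of all regions. The rows with 5 regions have wide intervals.

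The APOB window held 19 peaks in NTG and 11 in each siINO80 list, and the 11 peaks of siINO80#2 fell in 8 regions. The peaks covered 16.1 kb, 8.30 kb and 5.76 kb, or 19.5%, 10.0% and 6.97% of the window. On the whole of chromosome 2 the peaks covered 1.88%, 1.95% and 1.51%. Of the 16 regions inside the APOB gene other than its start site, 14 had a peak in NTG, 6 in siINO80#1 and 2 in siINO80#2. Of all merged regions of chromosome 2, 53% had a peak in NTG, 54.3% in siINO80#1 and 41.4% in siINO80#2. All 5 regions with a summit in the coding exons were found in NTG, 3 of them in siINO80#1 and 0 in siINO80#2. The 11 regions of the window found in NTG alone (47.8% of its 23 regions, 29.2 to 67.0; 26.8% of the regions of chromosome 2) had 23 to 45 reads. Their fold enrichments of 1.86 to 3.29 ranked at percentiles 0.0473 to 45.3 of the list, whereas their heights of 6.02 to 11.8 ranked at percentiles 58.7 to 87.1. The local background at the APOB peaks was a median of 3.60 times the genome background in NTG, 2.52 in siINO80#1 and 2.86 in siINO80#2. When each list was reduced to the size of siINO80#2 by fold enrichment, 7 peaks were left in NTG, 5 in siINO80#1 and 11 in siINO80#2. The count of siINO80#1 remained lower than that of NTG, and that of siINO80#2 was then higher. The siINO80#2 list lost no peak in this step, whereas the others lost their peaks of lowest fold enrichment, where many NTG peaks of this window ranked. The step therefore cannot decide whether the window held fewer peaks in siINO80#2 than in NTG.

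Within the APOB window the strongest peak of every list was an upstream region 12.4 kb from the start, chr2:21278509-21279808. It had 83 reads in NTG, 90 in siINO80#1 and 84 in siINO80#2. The fold enrichments were 8.68, 7.84 and 6.51 and the heights 21.7, 17.5 and 15.7, as high as the start site itself. The height ratio was 0.803 for siINO80#1 (0.589 to 1.096) and 0.724 for siINO80#2 (0.528 to 0.993). A region beyond the 3′ end, 45.3 kb from the start site and near a long noncoding RNA gene (ENSG00000261012), spanned 3565 bp and had ratios of 0.543 (0.359 to 0.815) and 0.417 (0.267 to 0.644). Another upstream region, 3.44 kb from the start, had ratios of 1.19 and 0.829, and both intervals included 1.

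**Figure D4:**
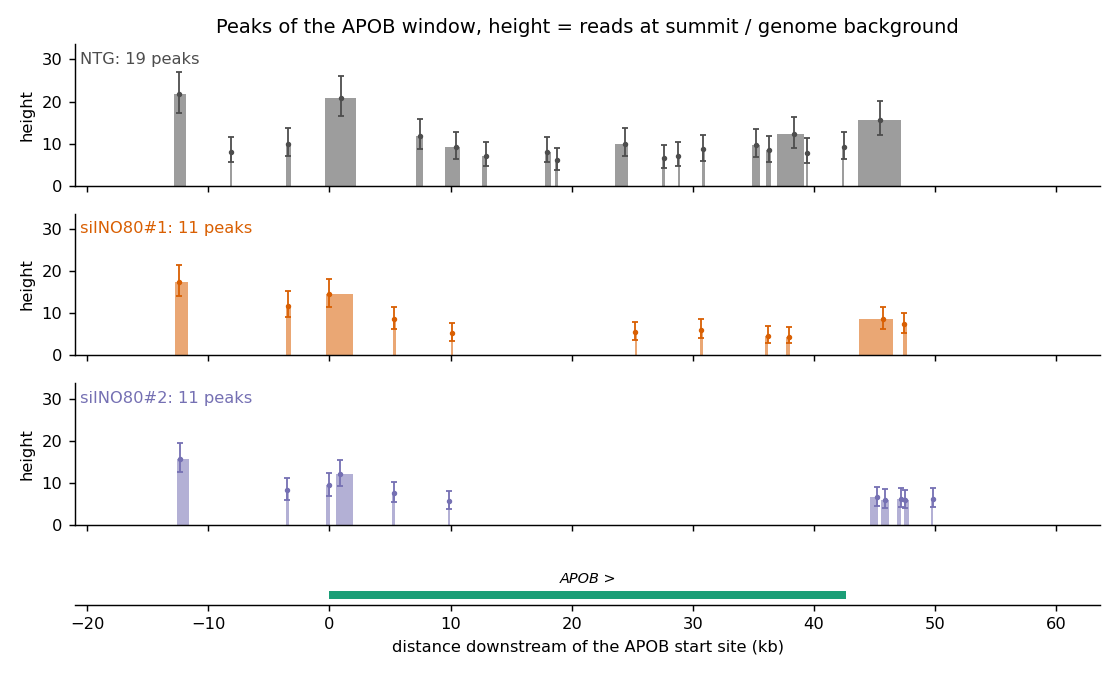
Peaks of the APOB window in each list (panels) by distance from the APOB start site (x axis, kb, positive into the gene), with the gene as a green bar. Each box spans a peak and rises to the height of its strongest summit (y axis, reads at the summit over the genome background), with a 95% Poisson interval. The 19 NTG peaks run along the whole gene, whereas none of the 11 siINO80#2 peaks lies between the intron peak near 10 kb and the 3′ end.

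The chromosome 11 cluster held 7 peaks in each list, and 3 of its 12 regions (25%, against 26.8% of all regions) were common to all of them. These were the APOA1 start site, an intergenic region between APOA5 and APOA4, and the start site of BUD13, a splicing factor gene at the edge of the window. The intergenic region, chr11:116678603-116679918, lay 14.9 kb beyond the APOA4 start. It had 42 reads in NTG, 35 in siINO80#1 and 24 in siINO80#2, fold enrichments of 6.97, 4.50 and 3.24 and heights of 10.999, 6.79 and 4.50. The ratios of 0.617 (0.383 to 0.990) and 0.409 (0.237 to 0.691) had intervals below 1, and the second was the lowest of the 19 regions common to all lists. A weaker peak 264 bp from the start of the noncoding gene ENSG00000236267, 9.04 kb beyond the APOA4 start, was found in NTG alone with 19 reads and a fold enrichment of 4.09. The start site of ZPR1, next to APOA5, had a peak in NTG and siINO80#1 (heights 4.98 and 6.01). The start site of APOA1-AS, an antisense gene that overlaps APOA1, had one in siINO80#2 alone (height 5.81).

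**Figure D5:**
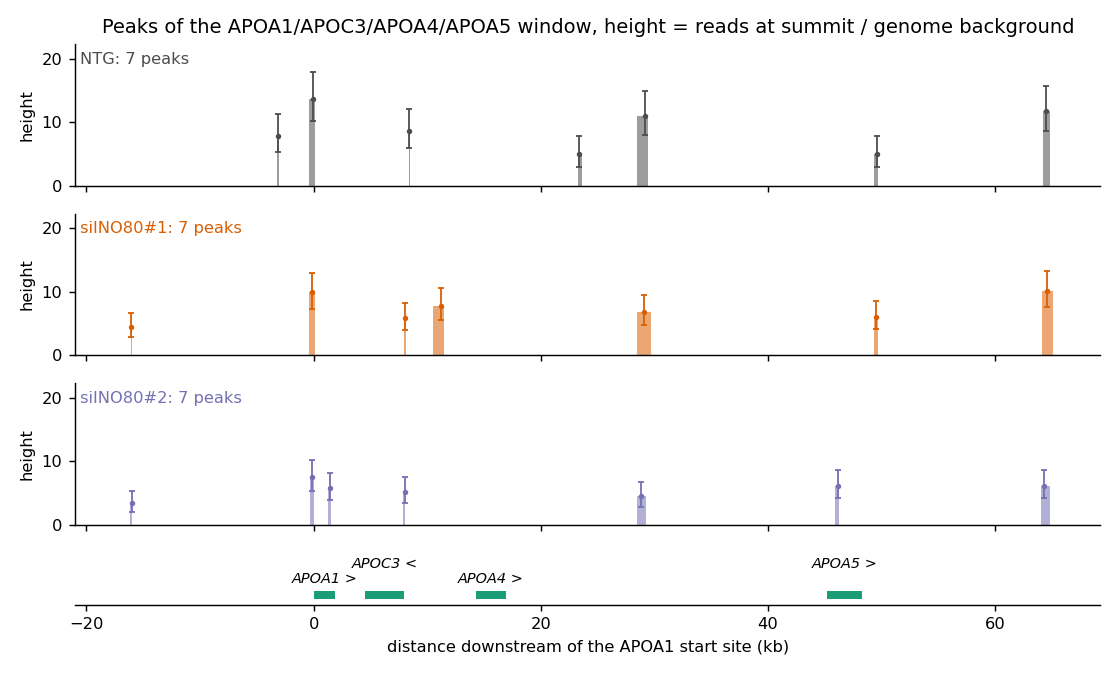
Peaks of the chromosome 11 cluster in each list (panels) by distance from the APOA1 start site (x axis, kb, positive into APOA1), with genes as green bars and arrowheads for their direction. Boxes span the peaks and rise to the height of the strongest summit (y axis, reads at the summit over the genome background), with 95% Poisson intervals. The 3 lists have 7 peaks each, and the APOA1 start, the intergenic region near 29 kb and the BUD13 start near 64 kb are common to them.

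Of the 4 NTG peaks of the chromosome 19 cluster 1 had a match in siINO80#1 and in siINO80#2, against 56.5% and 48% of all NTG peaks. It lay at the start site of TOMM40, which encodes a mitochondrial import pore, and of the noncoding gene ENSG00000267282, with heights of 19.1, 18.6 and 11.4. NTG alone held the APOC1 start-site peak and 2 distal peaks downstream of APOC1. The first, chr19:45427577-45427948, lay 9.58 kb from the APOC1 start and 2.34 kb before the pseudogene APOC1P1, with 26 reads, a height of 6.81 and a fold enrichment of 3.79. The second, chr19:45439209-45439485, lay 21.2 kb from the APOC1 start and 6.21 kb before APOC4, with 21 reads, a height of 5.50 and a fold enrichment of 4.11. These ranked at percentiles 60.0 and 65.1 of NTG by fold enrichment. siINO80#1 had a peak of 22 reads, chr19:45427298-45427484, beside the first of them without overlap, and siINO80#2 had no peak beyond the TOMM40 start.

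In the APOA2, APOH and APOM windows the strongest NTG peaks had a match in both siINO80 lists. In the APOA2 window the strongest distal peak, chr1:161187581-161188984, lay in FCER1G, an immunoglobulin receptor gene, and had 40, 40 and 25 reads, with ratios of 0.741 (0.466 to 1.18) and 0.447 (0.260 to 0.756). The start site of NR1I3, which encodes the nuclear receptor CAR, had a peak in NTG (height 6.81) and siINO80#1 (4.07) and none in siINO80#2. In the APOH window the distal peak, chr17:64271729-64272311, lay 19.3 kb upstream of the farthest annotated APOH start and 46.4 kb from the canonical one. It had 50, 52 and 37 reads, heights of 13.1, 10.1 and 6.93 and ratios of 0.770 (0.512 to 1.16) and 0.530 (0.337 to 0.827). The start site of CEP112, at the other edge of the APOH window, had ratios of 1.36 (0.743 to 2.56) and 1.23 (0.668 to 2.34), and was the only region common to all lists with a higher height in both siINO80 lists. In the APOM window the other common region was the start of GPANK1 and CSNK2B, with ratios of 0.650 (0.421 to 0.999) and 0.555 (0.354 to 0.865).

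Over the 19 regions common to all lists the median log2 height ratio was −0.43 for siINO80#1 and −0.80 for siINO80#2, against −0.14 and −0.42 over 29863 regions. The height was below NTG in 14 regions for siINO80#1 (63.6% of all regions) and in 18 for siINO80#2 (80.6%). The interval of the ratio lay below 1 in 6 of the 19 regions for siINO80#1 (10.6% of all regions) and in 12 for siINO80#2 (27.5%), and above 1 in 0 for either. Such an interval is narrower where reads are more, so these shares are not compared at equal read numbers. The 19 regions had 18 to 83 reads in NTG, whereas the median over all NTG peaks was 20. By kind, the start sites of neighbouring genes had a median of 0.08 for siINO80#1, whereas the start sites of the apolipoprotein genes had −0.46 and the distal regions −0.43. For siINO80#2 these medians were −0.79, −0.80 and −0.92. The groups hold 6, 6 and 7 regions, and the difference between kinds was not tested. The start-site regions of the apolipoprotein genes included both APOM start sites and not APOC3, so they were not the 6 genes compared above. Of these regions, 5 were below NTG in siINO80#1 and 6 in siINO80#2.

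A siINO80#1 peak overlapped 25 of the 46 NTG peaks by at least 1 bp (54.3%, 40.2 to 67.8) and a siINO80#2 peak 19 of them (41.3%, 28.3 to 55.7), against 56.5% and 48% of all NTG peaks. Without the APOB window the shares were 63.0% and 51.9% of 27 peaks. In the APOB window they were 42.1% (23.1 to 63.7) and 26.3% (11.8 to 48.8) of 19 peaks, against 44.8% and 38.8% of all NTG peaks on chromosome 2. Each of these intervals included its background share.

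The 200 bp around each summit were searched on both strands for motifs of liver factors, which were HNF4A (CAAAGTCCA), HNF1 (GTTAATNAT) and C/EBP (TTGCNNAA). The forkhead motif of FOXA factors was searched as TGTTTAC. The motif of AP-1, a factor induced by growth signals, was searched as TGANTCA. The box bound at many core promoters was searched as TATAAA. None of these motifs contains another. AP-1 was the most frequent, in 6 of the 59 regions (10.2%), and in 15.6% of all regions. It was present at the APOA2 and APOH start sites printed above and in 2 copies in the upstream APOH peak, and also in an APOB intron and in 2 regions of siINO80#1 alone. The other motifs were found in 0 (HNF4A, 0.801% of all regions), 1 (HNF1, 1.06%), 2 (FOXA, 4.96%), 3 (C/EBP, 10.3%) and 3 regions (TATA, 10.7%). HNF1 was matched 3.44 kb upstream of APOB, and FOXA in FCER1G and in an APOB intron. C/EBP was matched in the intergenic region of the chromosome 11 cluster and in the APOB window, 8.13 kb upstream and 49.7 kb downstream of the start. None of the 21 regions of NTG alone held AP-1, and 11 of these lay in the APOB window. The share over all regions of NTG alone was not computed. A match is a description of these letters and not a site.

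Another 34 genes of lipoprotein metabolism were read in the same way. A start-site peak was found for 20 in NTG, 17 in siINO80#1 and 16 in siINO80#2, for 14 in all lists and for 13 in none. Over all protein-coding genes the shares were 60.5%, 60.1%, 53.4% and, in all lists, 50.8%, each above the share of these genes (58.8%, 50.0%, 47.1% and 41.2%). Of 4 genes of particle assembly and secretion, 4, 4 and 3 had one, led by MTTP, which loads lipid onto APOB, with fold enrichments of 12.6, 10.3 and 10.6. Of 11 genes of uptake and efflux the counts were 9, 8 and 9, and of 10 other apolipoproteins 2, 2 and 3. Of 9 genes of plasma remodelling they were 5, 3 and 1. LIPC, which encodes hepatic lipase, and ANGPTL4, an inhibitor of lipoprotein lipase, had a peak in NTG (fold enrichments 3.92 and 2.78) and in neither siINO80 list. In the 14 genes with a peak in all lists, among which ABCG5 and ABCG8 share 1 peak, the height was lower than in NTG in 14 for each siRNA, with median log2 ratios of −0.62 and −0.66. Over all protein-coding genes with a peak in all lists 67.1% and 91.3% were lower, with medians of −0.14 and −0.48. The ratios of 12 and 10 of the 14 genes lay below these medians.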

How the data were processed

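ATAC-seq peaks of HepG2 cells were taken from 1 deposited list for each siRNA, made by the authors from 3 replicates of each group. Whether the replicates were pooled, called together or merged as lists afterwards is not given in the sources used here, and the recovered reads describe a pool only in the first cases. Per the labels the build was hg19, and the submitters' processing notes name Trim Galore 0.4.1, Bowtie2, SAMtools, MACS2 and deepTools 2.2.4, with their roles, any shift of reads for the transposase and the filter behind the lists not given in the sources used here. The deposited fold enrichment is a ratio of the summit of a peak to the background near it, and no input library was used. Both p and q are −log10 values as deposited, with a lowest −log10 q of 1.30 in every list. Numbers of sequenced reads are unknown.

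Where an interval had several summits, the one of highest fold enrichment stood for it. The reads at a summit, as a whole number, and the background near it were solved from fold enrichment and −log10 p, which left errors up to 0.00121 in −log10 p, and the lowest background of a list was its genome background. The summit height is their ratio. It compares lists only as far as the genome background scales with depth, and a summit is the maximum of its own list. Reads without molecular identifiers are not independent molecules. Gene models were GENCODE (lifted to GRCh37), with 220817 start sites. Overlap was counted from 1 bp. The recovery was tested on 5000 simulated peaks and the overlaps on 700 simulated intervals against bedtools, and 100% of each came out right. The simulated peaks were made with the same formulas as the recovery assumes. That test therefore checks the solving and cannot show that the deposited values follow the formulas. The tools were bedtools 2.31.1, pysam 0.24.0, scipy 1.17.1, pandas 2.3.3, numpy 2.4.6 and matplotlib 3.10.9 under Python 3.11.15.

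The genes, gene lists, motifs and markers were chosen with earlier results of these data known. The text names all 10 genes with their start-site peaks, the strongest distal peak of each window, the regions of NTG alone or of both siINO80 lists alone that ranked above percentile 50 of their list, other lipoprotein genes whose start-site peak differed between NTG and both siINO80 lists, and neighbouring genes with a peak at their start. Further regions (the APOB regions of NTG alone, the 3′ region and the region 3.44 kb upstream of APOB) were named after their values had been seen. The individual values of 1 further region common to all lists are not reported here. RefSeq promoter entries for APOA1, APOB and APOC3 were not used here. The alternatives were a −log10 q of at least 5, equal list size, merging within 500 bp, an overlap of 50% of the peak, windows of 10 and 50 kb, a distance of 2.5 kb, the gene record's 5′ end alone, the start site inside the peak and ranking by −log10 q. Ranking by summit height, leaving out APOB, fold enrichment in place of height and the q threshold for height ratios were added after the data had been seen.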

Additional observations from a re-analysis of the deposited data

Results flagged for a closer look

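In 3 of 18 regions common to all lists the height ratio to NTG was above 1 for one siRNA and below 1 for the other. The common region whose values are not reported here was left out of this count. The intervals of the ratios in these 3 regions all included 1, and the share of such regions over the whole lists was not computed. At the TOMM40L start site beside APOA2 it was 1.15 for siINO80#1 and 0.771 for siINO80#2, in the region 3.44 kb upstream of APOB 1.19 and 0.829, and at the upstream APOM start site shared with BAG6 1.09 and 0.930. The number of peaks in the APOA2 window was higher than in NTG by 1 in siINO80#1 and differed by −2 in siINO80#2, and that of the APOH window by 1 and −1. Counted as merged regions, the APOA2 window held 7 in NTG, 6 in siINO80#1 and 5 in siINO80#2, and the APOH window 3, 5 and 3. With 1 list for each siRNA these differences were not tested.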

How the results depend on the processing

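Under 14 other settings 117 values were computed for 23 results. Of these, 84 stayed within 1.5 times the count or within the interval of the value given in the report, and 33 moved further. Only the median log2 ratios could change sign, and 0 of them did. With a −log10 q of at least 5 there were 25, 21 and 15 peaks in the windows (NTG, siINO80#1 and siINO80#2), in the APOB window 9, 5 and 4, and the median percentiles were 65.1, 54.3 and 56.8. There were then 11 regions in all 3 lists, 9 in NTG without a siINO80 list and 6 in a siINO80 list without NTG. Of the other lipoprotein genes 15 had a start-site peak in NTG, 10 in siINO80#1 and 11 in siINO80#2. At equal list size NTG had 25 peaks in the windows and siINO80#2 had 30. The APOB window then held 7 in NTG, 5 in siINO80#1 and 11 in siINO80#2, so that NTG was lower than siINO80#2 in both counts. Only NTG and siINO80#1 lose peaks at equal list size, so these counts cannot decide between NTG and siINO80#2. NTG then had 8 regions without and 1 with a single siINO80 list, and 68.0% and 64.0% of its peaks were matched in siINO80#1 and siINO80#2. An overlap of at least 50% matched 39.1% in siINO80#1. Windows of 10 kb held 12 regions in all lists, and windows of 50 kb held 8 in NTG and 1 siINO80 list. Without APOB there were 27 peaks in NTG and 19 in siINO80#2, with 10 regions in NTG without a siINO80 list and 2 in NTG and 1 siINO80 list. By −log10 q the median percentiles were 56.7 in siINO80#1 and 52.2 in siINO80#2, and by summit height 76.1, 74.7 and 69.7 in the same order of lists. With fold enrichment the median log2 ratio at the start sites was −0.41 for siINO80#2. The cause of these shifts was not tested, except that a stricter threshold, equal size and the removal of APOB leave fewer peaks. No paired analysis was possible because the 3 replicates of a group share 1 list, and leaving out a replicate was not run for the same reason. A peak that is missing from a list may lie below its calling threshold.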
